A study of Mus musculus with 9 samples.

Results

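The genes described here are 38 genes of epidermal and squamous differentiation, read in normal mammary glands and mammary tumours of mice. They were taken as the probe sets whose only gene symbol was on a list of keratins, desmosome proteins, envelope proteins, barrier lipid enzymes, proteases and regulators of stratified epithelium. Each of the 38 had 1 probe set, out of 22180 genes with a single-symbol probe set on the array.

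Gene expression was measured on Affymetrix Mouse Gene 2.0 ST arrays, which hybridise labelled RNA to probes along each transcript, in 9 female FVB mice with 1 array each. The 3 normal glands came from control littermates labelled Wild-type Wnt1, aged 533, 556 and 538 days. The series' design text can also be read as placing the normal glands in MMTV-Wnt1 mice, and the genotype labels were followed here. Wnt1 itself read 5.61, 5.45 and 5.71 on the normal glands and between 11.20 and 12.40 in the tumours. The 3 non-metastatic tumours came from mice labelled Wnt1+/- aged 354, 222 and 298 days, and the 3 metastatic tumours from Wnt1+/- mice aged 300, 281 and 284 days. All these ages are at collection. Tumour onset was at 306, 192 and 247 days in the non-metastatic group and at 251, 194 and 242 days in the metastatic group. These tumour-bearing mice were MMTV-Wnt1 transgenics, in which a mouse mammary tumour virus promoter drives the secreted protein Wnt1. From 6 weeks of age both genotypes drank 6% sucrose with 200 ug/ml doxycycline, and tumours were collected at 20 mm. RNA came from pieces of frozen tissue. The normal glands were older than the tumours in every case, so age and tumour status cannot be told apart. The same 3 normal glands enter each comparison with normal tissue.

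In a stratified squamous epithelium, basal cells leave the cell cycle, move up and switch to suprabasal keratins, chiefly Krt1 and Krt10. They then build a cornified envelope from involucrin, small proline-rich proteins and loricrin, cross-linked by transglutaminases, and coat it with ceramide lipids before proteases cut the last junctions and the cells are shed. The mammary epithelium is a bilayer of luminal and basal cells that does not cornify, while the nipple duct and the overlying skin do. Squamous metaplasia is a known feature of some mouse mammary tumours.

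Some of these genes were high on normal gland 2 alone, and others were also high in tumours. A gene is called raised on an array where its log2 value was at least 1 above the higher of normal glands 1 and 3. This is a description of single arrays without a test. On normal gland 2, 30 of the 38 genes were raised, against 2.01% of all genes. At least 1 tumour raised 25 of the 38, against 8.08% of all genes, and all 6 tumours raised 5, against 0.239%. Those 5 were Krt79, Dsg3, Sprr1a, Cers3 and Asprv1. At least 4 tumours raised 10 of the 38 (0.987% of all genes), namely these 5 with Dmkn, Grhl3, Abca12, Elovl4 and Lgals7.

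The tissue was checked on marker lists. On several lists normal gland 2 differed from normal glands 1 and 3. Its mean over 16 skeletal muscle markers was 9.77, against 5.76 and 6.04 in the other normal glands, and all 16 were raised. Its mean over 8 milk protein markers was 7.46, against 12.12 and 12.29, and over 12 luminal markers 8.01, against 9.36 and 9.32. Metastatic tumour 2 was likewise low in milk protein markers, with a mean of 7.63 against 10.79 to 12.40 in the other 5 tumours, and its luminal mean of 9.30 lay within the tumours' range of 9.29 to 10.17. The mean of 8 adipocyte markers lay between 11.18 and 12.16 on the 3 normal glands and between 6.42 and 8.17 in the tumours. Mammary luminal and basal markers were above the array's 30th percentile on every array. Results that rest on normal gland 2 are given with and without it below, and calls that were lost without metastatic tumour 2 are named.

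The promoters of 6 genes are shown as examples of both patterns. Krt77, Flg2 and Krt10 had the highest values on normal gland 2 relative to normal glands 1 and 3 among genes raised in no tumour. Sprr1a, Krt79 and Asprv1 were among the 4 genes with the highest tumour mean relative to those glands. Each line holds the 250 bases before the RefSeq start on the gene's own strand, 5′ to 3′, from the GRCm38.p6 table. The positions are chr3:92485882-92486131 (minus strand) for Sprr1a, chr15:101940325-101940574 (minus) for Krt79, chr6:86627924-86628173 (plus) for Asprv1, chr15:101869706-101869955 (minus) for Krt77, chr3:93197023-93197272 (plus) for Flg2 and chr11:99389365-99389614 (minus) for Krt10. Capitals mark matches to TGANTCA, the core that AP-1 factors bind, and to TATAAA, the TATA box.
Sprr1a: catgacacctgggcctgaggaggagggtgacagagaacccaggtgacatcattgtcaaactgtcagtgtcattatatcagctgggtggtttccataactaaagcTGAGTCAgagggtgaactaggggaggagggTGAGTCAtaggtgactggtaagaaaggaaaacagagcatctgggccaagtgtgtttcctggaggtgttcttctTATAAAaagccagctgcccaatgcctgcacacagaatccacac
Krt79: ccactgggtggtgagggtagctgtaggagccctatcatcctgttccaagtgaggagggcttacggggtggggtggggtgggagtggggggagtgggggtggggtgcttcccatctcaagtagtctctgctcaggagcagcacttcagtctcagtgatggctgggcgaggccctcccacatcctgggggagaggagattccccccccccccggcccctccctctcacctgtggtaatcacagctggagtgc
Asprv1: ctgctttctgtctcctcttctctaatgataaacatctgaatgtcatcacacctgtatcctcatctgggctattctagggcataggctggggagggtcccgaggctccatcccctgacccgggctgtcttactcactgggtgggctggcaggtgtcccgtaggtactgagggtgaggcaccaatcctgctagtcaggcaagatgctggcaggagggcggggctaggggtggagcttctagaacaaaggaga
Krt77: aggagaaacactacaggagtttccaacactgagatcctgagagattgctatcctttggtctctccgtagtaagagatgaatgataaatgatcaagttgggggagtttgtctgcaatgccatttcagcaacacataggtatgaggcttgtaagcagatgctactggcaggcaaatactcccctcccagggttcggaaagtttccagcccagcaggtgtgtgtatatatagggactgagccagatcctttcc
Flg2: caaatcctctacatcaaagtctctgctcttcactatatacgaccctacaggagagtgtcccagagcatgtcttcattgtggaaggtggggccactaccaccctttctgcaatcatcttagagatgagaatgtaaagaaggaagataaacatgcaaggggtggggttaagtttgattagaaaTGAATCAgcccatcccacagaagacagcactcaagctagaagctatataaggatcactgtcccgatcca
Krt10: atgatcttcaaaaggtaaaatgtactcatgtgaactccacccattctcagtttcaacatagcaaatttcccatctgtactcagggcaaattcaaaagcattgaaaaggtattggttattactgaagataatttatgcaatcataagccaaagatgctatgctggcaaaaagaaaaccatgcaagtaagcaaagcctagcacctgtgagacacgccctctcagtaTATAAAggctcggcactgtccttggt

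Sprr1a held 2 matches to TGANTCA and 1 TATAAA, Flg2 held 1 TGANTCA, Krt10 held 1 TATAAA, and the other 3 windows held no match. Promoters of 30 of the 38 genes were in the table. TGANTCA, searched on both strands, was in a promoter of 10 of these 30 genes (33.3%). Of all 27025 genes with a promoter in the same table, 7.82% held it. It was found for 2 of 6 genes raised on normal gland 2 alone and for 7 of 17 raised there and in a tumour. TATAAA on the gene's strand was in 7 of 30 (23.3%) against 8.94%. AACCGGTT, the palindrome that Grainyhead-like factors bind, was in 0 of 30 against 0.137%. A match is a run of letters and was not tested as a binding site.

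**Figure D1:**
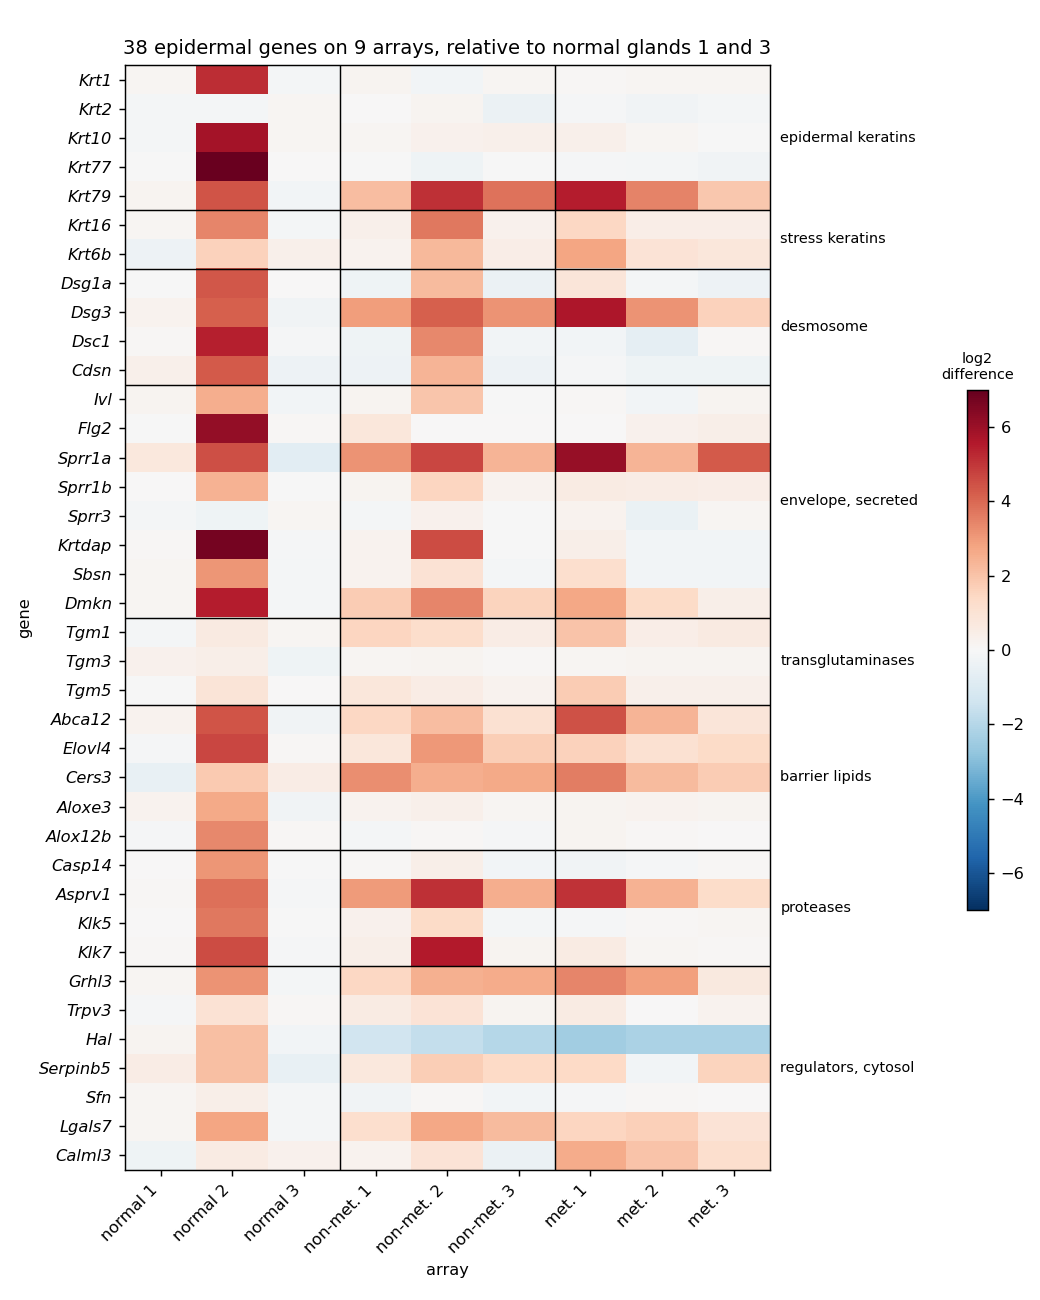
Log2 value of each of the 38 genes (rows, grouped by role) on each of the 9 arrays (columns, met. for metastatic) minus the mean of normal glands 1 and 3, in colour from blue (lower) to red (higher). Normal gland 2 is red for most rows, non-metastatic tumour 2 and metastatic tumour 1 for many, and Krt79, Dsg3, Sprr1a, Cers3 and Asprv1 are red in all 6 tumours.

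The keratins of interfollicular epidermis separated from Krt79. Krt1 and Krt10, the filament pair of suprabasal epidermal cells, and Krt77, a relative of Krt1, were raised on normal gland 2 and in none of the 6 tumours. Krt77 read 5.35, 12.32 and 5.45 on normal glands 1, 2 and 3, 5.35, 5.11 and 5.35 in the non-metastatic tumours, and 5.31, 5.29 and 5.15 in the metastatic tumours. No tumour exceeded normal glands 1 and 3, and normal gland 2 lay 6.92 above their mean, the highest of the 38. For Krt10 the normal glands read 6.23, 12.17 and 6.49 and the tumours lay between 6.32 and 6.73. For Krt1 they read 5.57, 10.61 and 5.30 and the tumours lay between 5.22 and 5.60. The 6 tumours thus covered a span of 0.38 for Krt1, where normal gland 2 lay 5.17 above normal glands 1 and 3.

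Krt79, a keratin of the hair canal and sebaceous duct, behaved otherwise. Its values were 6.72, 10.92 and 6.33 in normal glands, 8.67, 11.61 and 10.32 in non-metastatic tumours, and 12.02, 9.99 and 8.42 in metastatic tumours. All 6 tumours were above normal glands 1 and 3, and non-metastatic tumour 2 and metastatic tumour 1 were also above normal gland 2. Krt2, a keratin of ear, tail and footpad epidermis, lay between 4.66 and 5.28 on the 9 arrays, whose 30th percentiles over all genes lay between 4.83 and 4.95.

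The stress keratins Krt16 and Krt6b followed 2 tumours. Krt6a, which is outside the set described here, did not share this pattern and was raised in all 6 tumours. Krt16, which pairs with Krt6 in activated keratinocytes, read 4.24, 7.53 and 4.01 in normal glands, 4.49, 7.84 and 4.44 in non-metastatic tumours, and 5.57, 4.60 and 4.59 in metastatic tumours. Non-metastatic tumour 2 and metastatic tumour 1 raised it. Krt6b read 4.99, 7.01 and 5.75, then 5.62, 7.62 and 5.86, then 8.12, 6.30 and 6.15 in the same order. The same pair of tumours raised it, and both exceeded normal gland 2. Krt6a and Krt6b are near-identical in sequence, so their probe sets may share signal.

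Desmosomal genes split by subtype. Desmogleins and desmocollins are the cadherins that join keratinocytes, and Dsg3 belongs to the lower layers of the epidermis while Dsg1 and Dsc1 belong to the upper ones. Dsg3 read 5.09, 9.03 and 4.58 in normal glands, 7.77, 9.03 and 7.97 in non-metastatic tumours, and 10.48, 7.97 and 6.42 in metastatic tumours. All 6 tumours raised it. Dsg1a read 5.49, 9.89 and 5.57, then 5.24, 7.73 and 5.13, then 6.38, 5.39 and 5.15, and was raised in non-metastatic tumour 2 only among tumours. Its copies Dsg1b and Dsg1c are close in sequence, so cross-hybridisation between them was not separated.

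Dsc1 read 4.84, 10.20 and 4.67 in normal glands, 4.45, 8.10 and 4.56 in non-metastatic tumours, and 4.58, 4.13 and 4.84 in metastatic tumours. Cdsn, the corneodesmosin that locks the junctions of the cornified layer, read 6.28, 10.24 and 5.60, then 5.57, 8.33 and 5.61, then 5.84, 5.63 and 5.65. Both repeated the pattern of Dsg1a, with normal gland 2 highest, non-metastatic tumour 2 next and the remaining 7 arrays close together.

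Among envelope and secreted proteins, Sprr1a, a small proline-rich envelope precursor, had the highest tumour mean relative to normal glands 1 and 3, a difference of 3.82. It read 6.56, 10.31 and 5.07 in normal glands, 8.95, 10.47 and 8.18 in non-metastatic tumours, and 11.89, 8.21 and 10.09 in metastatic tumours. All 6 tumours were above normal glands 1 and 3 and non-metastatic tumour 2 and metastatic tumour 1 were above normal gland 2. Its neighbour Sprr1b lay between 5.02 and 6.36 in tumours and was raised in non-metastatic tumour 2 alone. Sprr3, an envelope protein of mucosal epithelia, lay between 2.65 and 3.38 on all 9 arrays and was raised on none.

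Krtdap, a small secreted peptide of suprabasal keratinocytes, read 5.80, 12.42 and 5.66 in normal glands, 5.99, 10.32 and 5.72 in non-metastatic tumours, and 6.13, 5.54 and 5.55 in metastatic tumours. Normal gland 2 and non-metastatic tumour 2 stood far above the other 7 arrays. Ivl, the envelope scaffold involucrin, read 5.57, 7.94 and 5.23, then 5.57, 7.35 and 5.35, then 5.50, 5.21 and 5.57, with the same arrays high. Flg2, a filaggrin relative of the granular layer, read 4.22, 10.40 and 4.33 in normal glands and lay between 4.29 and 5.05 in tumours, so it was raised on normal gland 2 alone.

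Dmkn, the secreted protein dermokine, read 5.70, 11.08 and 5.42 in normal glands, 7.35, 8.98 and 7.12 in non-metastatic tumours, and 8.27, 6.89 and 5.99 in metastatic tumours. The 5 tumours that raised it all stayed under normal gland 2. Sbsn, suprabasin, was 10.16 on normal gland 2 and lay between 6.85 and 8.23 in tumours, where metastatic tumour 1 was the only one raised.

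Transglutaminases were the group with no gene raised on normal gland 2. Tgm1, the membrane-bound enzyme of keratinocytes, read 7.09, 7.85 and 7.38 in normal glands, 8.75, 8.48 and 7.76 in non-metastatic tumours, and 9.21, 7.71 and 7.85 in metastatic tumours. All 6 tumours exceeded normal glands 1 and 3, and 3 of them were raised. Tgm5 read 5.87, 6.79 and 5.92, then 6.68, 6.42 and 6.13, then 7.68, 6.28 and 6.24, with metastatic tumour 1 the only array raised. Tgm3, an enzyme of the upper epidermis and hair follicle, lay between 5.11 and 5.82 on all arrays.

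The barrier lipid genes divided between synthesis and oxidation. Cers3, the ceramide synthase for ultra-long acyl chains, read 5.25, 7.60 and 6.25 in normal glands, 8.99, 8.32 and 8.38 in non-metastatic tumours, and 9.32, 7.99 and 7.55 in metastatic tumours. It was raised in all 6 tumours, and 5 of them were above normal gland 2. Elovl4, which elongates the acyl chains of those ceramides, read 6.21, 10.99 and 6.38, then 7.06, 9.35 and 8.03, then 7.89, 7.37 and 7.61. It was raised in 4 tumours, none of which reached normal gland 2.

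Abca12, the lipid transporter of lamellar granules, read 5.19, 9.34 and 4.73 in normal glands, 6.40, 7.13 and 6.00 in non-metastatic tumours, and 9.41, 7.33 and 5.80 in metastatic tumours. It was raised in 4 tumours, and metastatic tumour 1 alone was above normal gland 2. The lipoxygenases that oxidise the ceramides were raised in no tumour. Alox12b was 8.52 on normal gland 2 and between 5.05 and 5.36 in tumours, and Aloxe3 was 7.85 and between 5.33 and 5.57.

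Proteases also split. Asprv1, the retroviral-like protease that processes filaggrin, read 5.82, 9.56 and 5.63 in normal glands, 8.69, 10.84 and 8.25 in non-metastatic tumours, and 10.77, 8.17 and 7.03 in metastatic tumours, and every tumour raised it. Casp14, a caspase that acts later on the same substrate, was 7.92 on normal gland 2 and between 4.56 and 5.20 in tumours. Klk7, a kallikrein that cuts corneodesmosomes, read 5.81, 10.30 and 5.66, then 6.17, 11.31 and 5.91, then 6.30, 5.90 and 5.81.

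Non-metastatic tumour 2 thus exceeded normal gland 2 for Klk7, while the other 5 tumours lay at most 6.30. Klk5, the kallikrein that activates Klk7, was 8.82 on normal gland 2, 6.44 in non-metastatic tumour 2 and at most 5.39 in the other tumours.

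The regulators and cytosolic keratinocyte proteins included Hal and Calml3, which the tests called. Grhl3, a Grainyhead-like transcription factor of barrier formation, read 5.61, 8.59 and 5.32 in normal glands, 6.91, 7.98 and 8.07 in non-metastatic tumours, and 8.89, 8.32 and 6.18 in metastatic tumours, and 5 tumours raised it. Lgals7, the keratinocyte lectin galectin-7, was 5.75, 8.35 and 5.45 in normal glands and between 6.54 and 8.30 in tumours, with all 6 above normal glands 1 and 3.

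Hal, the histidase that makes urocanic acid from histidine, went the other way. It read 8.88, 10.78 and 8.48 in normal glands, 7.34, 7.02 and 6.68 in non-metastatic tumours, and 6.23, 6.47 and 6.46 in metastatic tumours. All 6 tumours lay below all 3 normal glands, which was so for this gene alone among the 38 and for 10.3% of the genes tested. None of the 38 had all 6 tumours above all 3 normal glands, against 15.7% of the genes tested.

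Calml3, a calmodulin-like protein of stratified epithelia, read 7.70, 8.57 and 8.28 in normal glands, 8.22, 8.93 and 7.57 in non-metastatic tumours, and 10.57, 9.98 and 9.16 in metastatic tumours. The metastatic tumours lay above all other arrays. Serpinb5, the serpin maspin, lay between 7.68 and 10.27 on the 9 arrays and was raised in 2 tumours. Sfn, the 14-3-3 protein sigma, lay between 7.64 and 8.25, and Trpv3, a warm-sensing channel of keratinocytes, between 5.76 and 6.84. Neither was raised on any array.

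**Figure D2:**
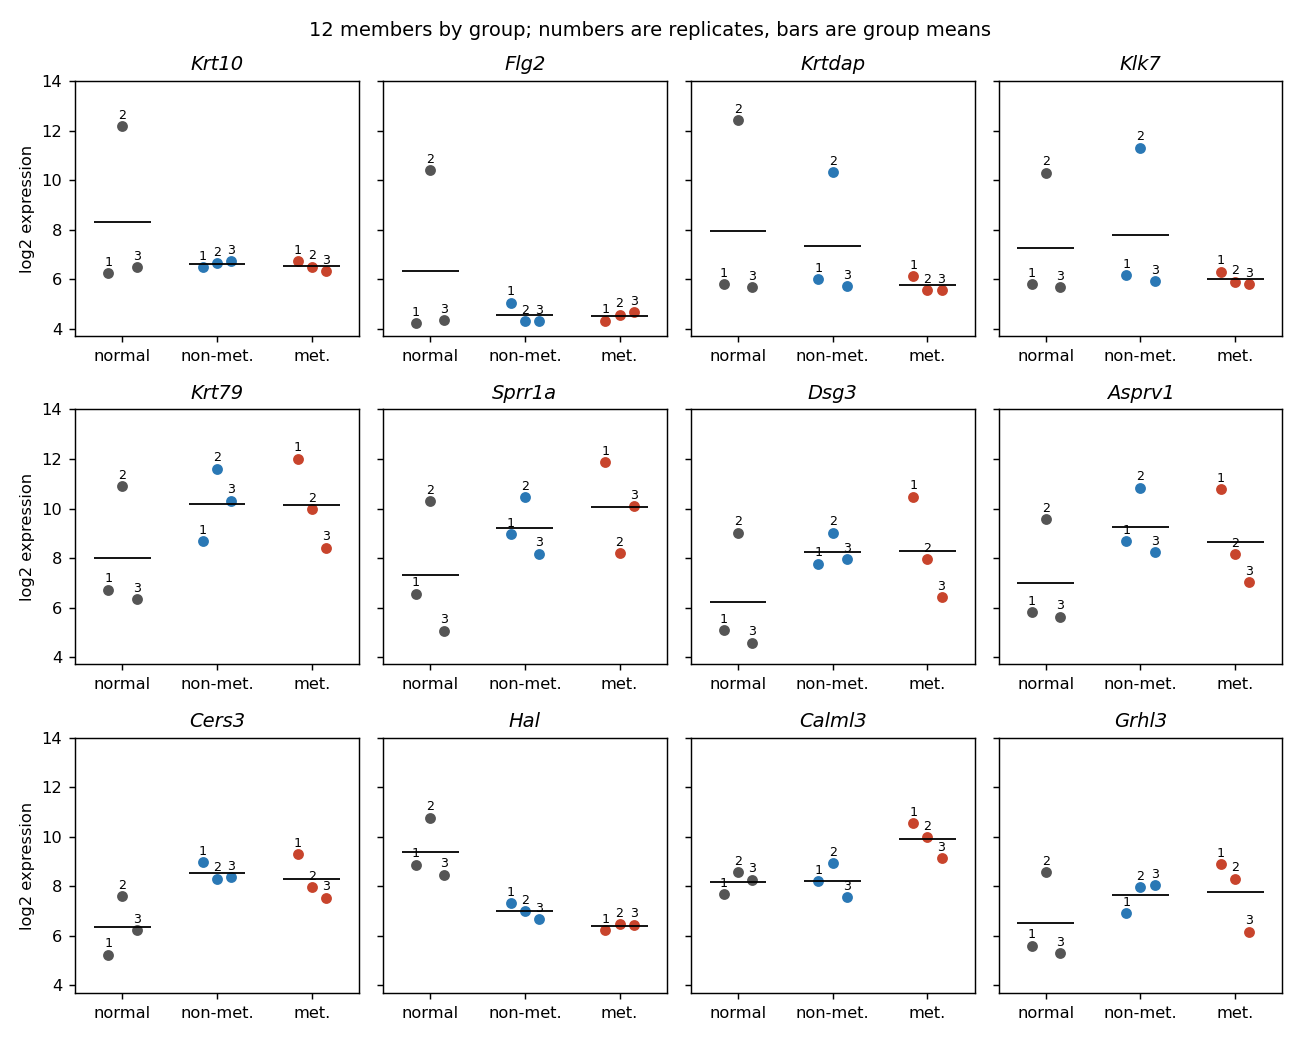
Log2 expression (vertical axis) of 12 genes in normal glands, non-metastatic and metastatic tumours (horizontal axis), with 1 point per mouse labelled by replicate number and a bar at the group mean (n = 3 each). Krt10 and Flg2 are high on normal gland 2 alone, Krtdap and Klk7 also in non-metastatic tumour 2, and Krt79, Sprr1a, Dsg3 and Asprv1 in all 6 tumours.

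By this rule 8 of the 38 genes were raised on normal gland 2 and in no tumour (1.2% of all genes): Krt1, Krt10, Krt77, Flg2, Aloxe3, Alox12b, Casp14 and Hal. Another 22 were raised on normal gland 2 and in at least 1 tumour (0.803%). Tgm1, Tgm5 and Calml3 were raised in a tumour but not on normal gland 2 (7.28%), and Krt2, Sprr3, Tgm3, Trpv3 and Sfn on no array (90.7%).

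**Figure D3:**
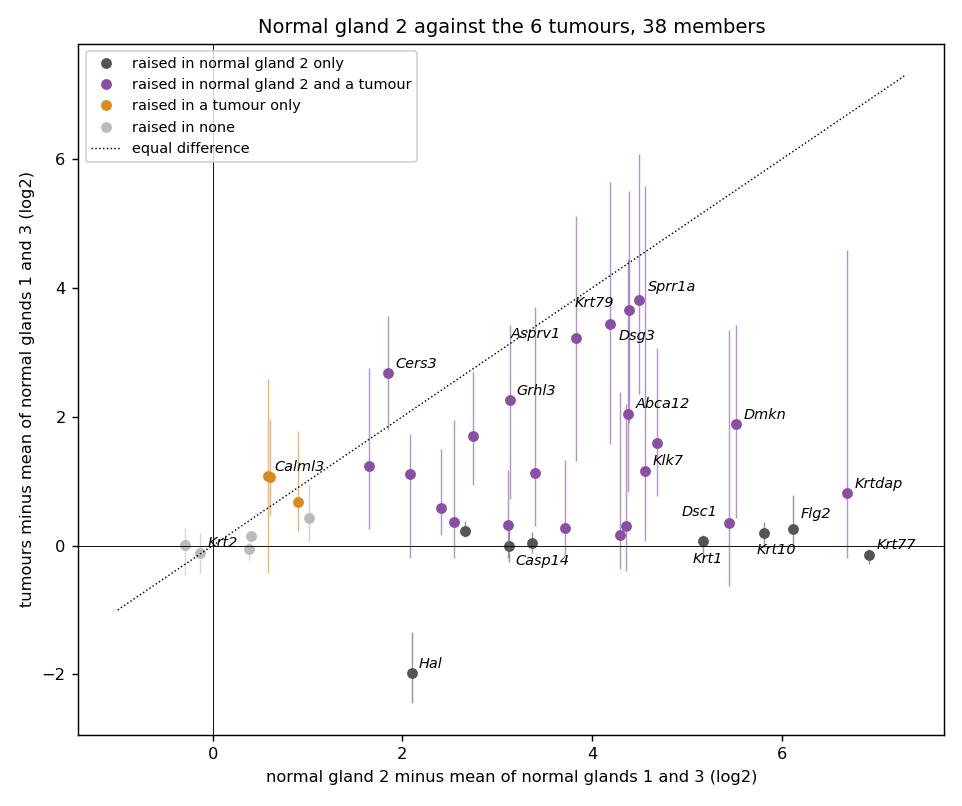
Each point is 1 of the 38 genes, with the log2 difference of normal gland 2 from the mean of normal glands 1 and 3 on the horizontal axis, and that of the mean of the 6 tumours on the vertical axis. Vertical lines run from the lowest to the highest tumour, and the dotted line marks equal differences. Krt77, Flg2, Krt10 and Krt1 lie far to the right near 0 on the vertical axis, Sprr1a, Krt79, Dsg3 and Asprv1 near the dotted line, and Hal below 0.

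The number of genes raised differed among the tumours of each group. Non-metastatic tumour 2 raised 22 of the 38 genes (2.6% of all genes) and metastatic tumour 1 raised 16 (2.69%). The other 4 tumours raised 9 in non-metastatic tumour 1 (2.08%), 9 in non-metastatic tumour 3 (3.12%), 10 in metastatic tumour 2 (2.8%) and 7 in metastatic tumour 3 (1.93%). Of the 38 genes, 19 were highest in non-metastatic tumour 2 and 12 in metastatic tumour 1. The median gene lay 1.62 above the mean of normal glands 1 and 3 in non-metastatic tumour 2 and 0.57 above it in metastatic tumour 1, and between 0.15 and 0.26 above it in the other 4 tumours. On normal gland 2 this median was 3.25. Over all 22180 genes it lay between -0.009 and 0.035 on these 7 arrays.

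Dsg1a, Dsc1, Cdsn, Ivl, Sprr1b, Krtdap, Klk5 and Klk7 were raised in non-metastatic tumour 2 and in no other tumour. Other genes of the upper epidermis were not raised there, among them Flg2 at 4.29, Casp14 at 5.20, Alox12b at 5.23, Aloxe3 at 5.57 and Tgm3 at 5.60. Sbsn and Tgm5 were raised in metastatic tumour 1 alone. The share raised in exactly 1 tumour was 10 of 38, against 4.57% of all genes.

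**Figure D4:**
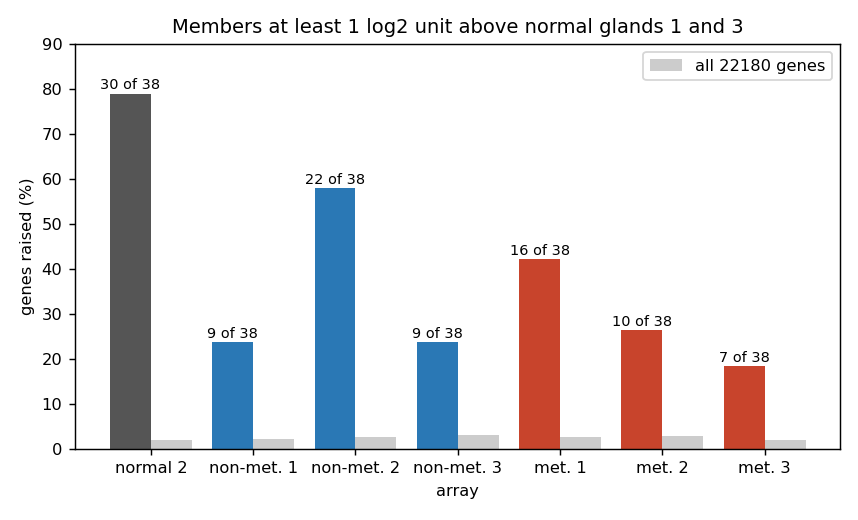
Percentage of the 38 genes (coloured bars, with counts) and of all 22180 genes (grey bars) that were raised on normal gland 2 and on each tumour array, where raised means at least 1 log2 unit above both normal glands 1 and 3. The count runs from 7 in metastatic tumour 3 to 30 on normal gland 2, and all genes stay between 1.93% and 3.12%.

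Markers of other tissue were set beside these arrays. The mean of the 16 skeletal muscle markers was 5.44 in non-metastatic tumour 2 and 5.52 in metastatic tumour 1, with none raised in either, and 6.81 and 7.50 in non-metastatic tumours 1 and 3, with 3 and 9 raised. The defining muscle gene Ckm, muscle creatine kinase, was 10.15 on normal gland 2, 6.07 in non-metastatic tumour 2 and 5.94 in metastatic tumour 1. Of 7 sebaceous gland markers, 4 were raised on normal gland 2 and none in a tumour. The list means were 6.18 to 7.80 in normal glands, 5.10 to 5.24 in non-metastatic tumours and 5.09 to 5.32 in metastatic tumours. Elovl3 had the largest gap on this list, with 10.91, 11.20 and 10.46 in normal glands and 4.36 to 5.18 in tumours. The gap in list means between normal glands 1 and 3 and the tumours rests mostly on it. The 8 adipocyte markers were likewise high on all normal glands and low in tumours. Whether Elovl3 reflects sebaceous tissue or fat here was not tested. Far2, a wax synthesis enzyme of sebocytes, was 10.38 on normal gland 2 and between 4.96 and 5.38 in tumours.

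Of 27 hair follicle markers 1 was raised on normal gland 2, and the list means lay between 5.22 and 5.39 on all 9 arrays. Non-metastatic tumours 1, 2 and 3 raised 0, 1 and 2 of them, and metastatic tumours 1, 2 and 3 raised 3, 1 and 2. Over all genes 1.93% to 3.12% were raised per tumour. Of the 21 tested, 1 rose in all tumours against normal glands (13.6% of all genes) and 3 fell (9.13%). The 1 that rose was Padi3 (1.54, SE 0.29, limma adjusted p = 0.0099), raised in 3 tumours. None of 8 melanocyte markers was raised on any array. Of 4 markers of the Langerhans and Merkel cells of skin, none was raised on normal gland 2, against 2.01% of all genes. Non-metastatic tumour 1 and metastatic tumours 1 and 2 raised 1 each, which was Sox2. Krt14, a keratin shared by basal epidermis and basal mammary cells, read 8.13, 11.45 and 8.92 in normal glands, 8.38, 9.41 and 9.53 in non-metastatic tumours, and 11.17, 9.99 and 8.92 in metastatic tumours. The 7 basal epithelium markers averaged 9.23 to 9.50 in normal glands, 7.52 to 9.39 in non-metastatic tumours and 9.84 to 9.90 in metastatic tumours. The even mean of the normal glands joins opposite shifts on normal gland 2. Krt14 and Krt17 (9.85 against 7.32 and 6.99) were raised there, and Trp63 was higher without being raised. Acta2, Myh11, Cnn1 (7.71 against 9.39 and 9.94) and Oxtr lay below normal glands 1 and 3. The part of skin or other tissue in the values of the 38 genes was not tested beyond these markers, and in such bulk tissue fewer cells of a type and less RNA per cell cannot be told apart.

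Whether metastatic and non-metastatic tumours differ is the question the series' groups pose. Of the 38 genes, 34 passed the filter on low values, and Dsc1, Flg2, Sprr3 and Casp14 did not. None of the 34 was called between the tumour groups by limma at an adjusted p under 0.05, while 1 gene of 17478 was called (0.00572%). An unadjusted limma p under 0.05 was found for 1 of the 34 and for 886 of the 17478. The 34 changes, metastatic minus non-metastatic, had a median of -0.11 against -0.019 for all genes tested, and ran from -1.79 to 1.66. The highest was Calml3, at 9.90 ± 0.71 in metastatic and 8.24 ± 0.68 in non-metastatic tumours (SD, n = 3), a difference of 1.66 (SE 0.44, limma adjusted p = 0.88). The metastatic and non-metastatic values did not overlap for Calml3 and Hal, that is for 2 of the 38 genes, against 10.3% of the genes tested. P-values here measure the spread between mice.

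Against normal glands, few of the 34 were called. In all tumours together Cers3 rose by 2.06 (SE 0.55, limma adjusted p = 0.030), and Hal fell by 2.68 (SE 0.45, limma adjusted p = 0.0070). These 2 calls compare with 22.8% of all genes called there, of which 13.6% were higher and 9.13% lower. The same genes were called for the non-metastatic group, Cers3 with 8.57 ± 0.37 against 6.37 ± 1.18 in normal glands (change 2.20, SE 0.63, adjusted p = 0.045) and Hal with 7.01 ± 0.33 against 9.38 ± 1.23 (change -2.37, SE 0.52, adjusted p = 0.020). There 18.8% of all genes were called (11.2% higher, 7.6% lower). In metastatic tumours Calml3 rose from 8.18 ± 0.44 to 9.90 ± 0.71 (change 1.72, SE 0.44, adjusted p = 0.041) and Hal fell to 6.39 ± 0.13 (change -2.99, SE 0.52, adjusted p = 0.014), where 13.3% of all genes were called (7.35% higher, 6% lower). All ± values are SD with n = 3, and p-values are from limma with Benjamini-Hochberg adjustment.

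The Cers3 and Calml3 calls were lost without single arrays. Cers3 over all tumours missed the threshold without normal gland 1 (change 1.50, limma adjusted p = 0.11), normal gland 3 (2.00, 0.075), non-metastatic tumour 1 (1.95, 0.055), non-metastatic tumour 2 (2.12, 0.0504) or metastatic tumour 1 (1.80, 0.0504). In non-metastatic tumours it missed it without any 1 of 7 arrays, with changes of 1.64 to 2.32 and adjusted p from 0.056 to 0.13. These 7 were normal glands 1 and 3, the 3 non-metastatic tumours and metastatic tumours 2 and 3. Calml3 in metastatic tumours missed it without normal gland 1 (1.48, 0.12), 2 (1.91, 0.076) or 3 (1.77, 0.065), non-metastatic tumour 1 (1.72, 0.058), or metastatic tumour 1 (1.39, 0.12) or 2 (1.68, 0.097). Hal over all tumours was called without each of the 9 arrays in turn, with changes of -3.13 to -1.98 and adjusted p from 0.0040 to 0.023. In single tumour groups the Hal call was lost without metastatic tumour 1 (-2.92, 0.053), non-metastatic tumour 2 (-2.37, 0.059) or non-metastatic tumour 3 (-2.20, 0.052).

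The changes against normal glands moved when normal gland 2 was left out. The median change over all tumours was 0.00 for the 34 genes with 3 normal glands (17 positive, 17 negative) and 0.67 for the 33 genes tested without normal gland 2 (29 positive, 4 negative), as a description. Without it limma called 3 genes, Cers3 (change 2.68, SE 0.49, adjusted p = 0.022) and Lgals7 (1.70, SE 0.40, 0.040) as higher in tumours and Hal (-1.98, SE 0.19, 0.0040) as lower. In that fit 10.8% of all genes were called, 5.83% higher and 4.93% lower. Without normal gland 2 the non-metastatic tumours held 3 called genes, Cers3, Lgals7 (2.03, limma adjusted p = 0.039) and Hal, against 8.54% of all genes. The metastatic tumours held 2, Cers3 (2.54, limma adjusted p = 0.049) and Hal, against 4.82%.

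The same fit gave larger changes without a call for the other 8 of the 10 genes raised in at least 4 tumours. These 10 genes were picked by tumour values above normal glands 1 and 3, the same arrays that this fit compares. Large positive changes here therefore follow from the picking and are not separate evidence. Sprr1a changed by 3.82 (SE 1.00, limma adjusted p = 0.054), Krt79 by 3.65 (SE 1.01, 0.063), Dsg3 by 3.44 (SE 0.94, 0.061), Asprv1 by 3.23 (SE 1.02, 0.088) and Grhl3 by 2.26 (SE 0.68, 0.078). With normal gland 2 included these were 2.32, 2.18, 2.04, 1.95 and 1.22, with adjusted p between 0.21 and 0.34. Dmkn went from 0.04 to 1.88 (limma adjusted p = 0.12 without normal gland 2), Abca12 from 0.59 to 2.05 (0.16) and Elovl4 from 0.03 to 1.59 (0.093). The suprabasal keratins moved to about 0 instead. Krt1 went from -1.65 to 0.07, Krt10 from -1.74 to 0.20 and Krt77 from -2.45 to -0.14, and none was called in either fit.

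**Figure D5:**
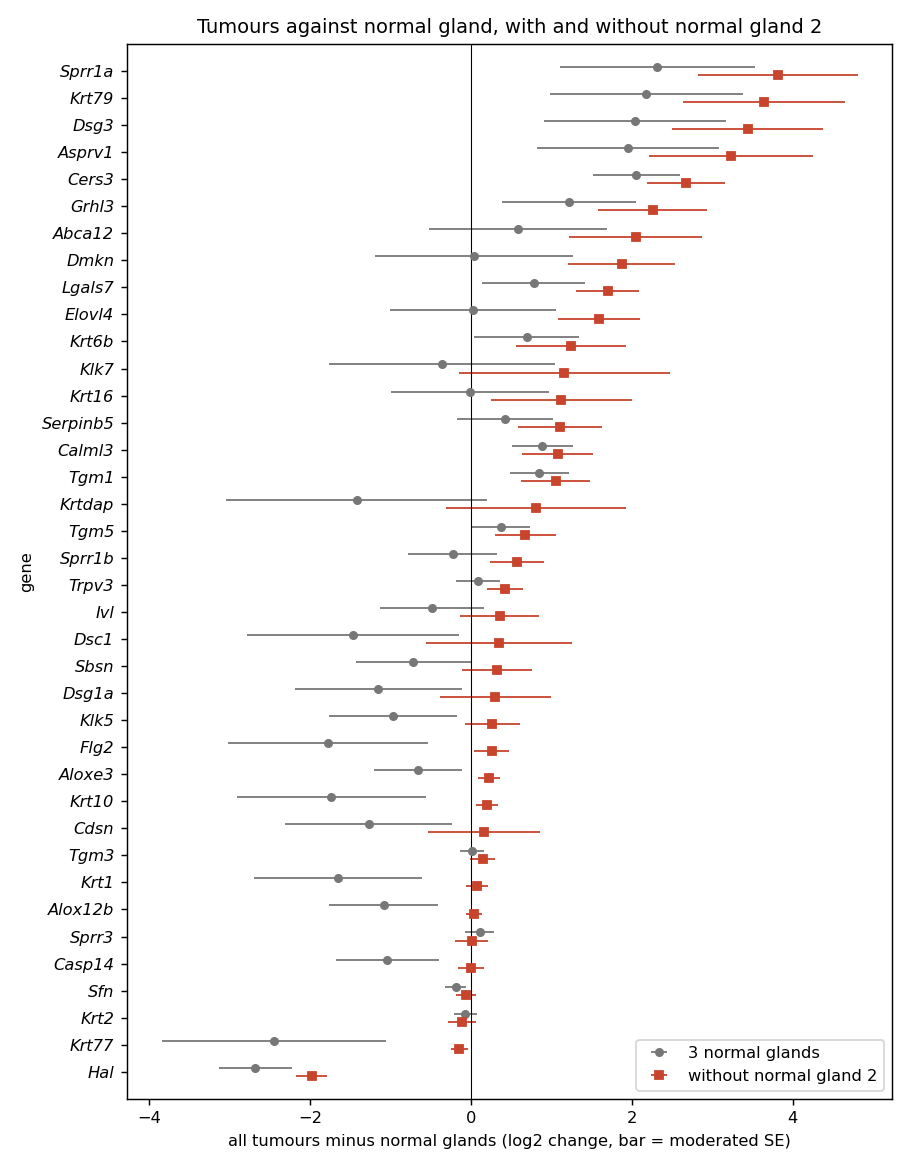
Log2 change of all tumours minus normal glands for the 38 genes (rows), fitted without the filter on low values, with 3 normal glands (grey circles) and without normal gland 2 (red squares). Bars are limma's moderated SE. Genes from Sprr1a to Grhl3 lie right of 0 in both fits, and Krt1, Krt10 and Krt77 move from below -1 to near 0.

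Other genes of the same biology were listed with the 38, and their counts in all tumours against normal glands stand beside 13.6% higher and 9.13% lower among all genes tested. Of 22 tested genes among 30 other cornified envelope genes limma called none in any of the 4 comparisons. In all tumours against normal glands 1 of the 22 had an unadjusted limma p under 0.05, against 6481 of all 17478 genes tested. Of the 30, 17 were raised on normal gland 2, against 2.01% of all genes. Metastatic tumour 1 raised 9 (2.69%) and non-metastatic tumour 2 raised 7 (2.6%). Non-metastatic tumour 1 raised 3 (2.08%). Non-metastatic tumour 3 and metastatic tumours 2 and 3 raised 1 each (3.12%, 2.8% and 1.93%). Of 15 tested barrier lipid genes 3 fell (9.13% of all genes) and none rose. These were Elovl6, a fatty acid elongase also abundant in fat (-3.35, SE 0.15, limma adjusted p = 2.6e-05), Lipm (-2.07, adjusted p = 0.027) and Smpd1 (-0.79, adjusted p = 0.020). The adipocyte markers fell beside them, 8 of 8.

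Of 18 tested junction and keratinocyte genes 3 rose and none fell, a share near that of all genes (13.6% higher). They were Dsc2, a desmocollin of simple and stratified epithelia (2.55, SE 0.41, limma adjusted p = 0.0058), Dsg2 (1.26, adjusted p = 0.021) and the tight junction protein Cldn4 (1.23, adjusted p = 0.0067). Of 19 epidermal regulators 5 rose and 2 fell (13.6% and 9.13% of all genes), among them the transcription factors Elf3 (1.76, SE 0.30, adjusted p = 0.0073), Tfap2c (1.54, SE 0.41, 0.031) and Cebpa (-1.96, SE 0.25, 0.0030). Of 12 luminal markers 4 rose beside them, Krt18, Epcam, Krt7 and Kit. Elf3, Tfap2c, Dsg2 and Cldn4 read 5.96, 6.56, 7.91 and 8.54 on normal gland 2, below normal glands 1 and 3, as these luminal markers did. The part of luminal cells in these changes was not tested, and the calls on these lists are not given without normal gland 2. Of 18 tested mucosal squamous genes the keratin Krt23 rose (2.66, SE 0.53, adjusted p = 0.012) and none fell. Of 12 keratinocyte alarmins limma called none, and 1 had an unadjusted p under 0.05, against 6481 of all 17478 genes tested.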

How the data were processed

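The authors deposited 1 table of log2 probe set levels for 9 arrays. Per the submitters' processing notes these come from RMA (background correction, normalisation between arrays, summary over probes), with its version, build and level of summary not given in the sources used here. Scanner files were left out. An array has no read depth, and precision is limited by the number of arrays.

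A platform annotation named the probe sets, and the one with the highest mean stood for a gene. The filter kept 17478 of 22180 genes, and 34 of the 38, whose value exceeded the 30th percentile of an array in 3 or more arrays. In limma 3.58.1 (R 4.3.3), group means were estimated from the 9 arrays together, leaving 6 residual degrees of freedom, and moderated with eBayes. Tests were two-sided, with Benjamini-Hochberg adjustment over the genes kept and an adjusted p under 0.05 as threshold. The fit was tested on simulated data with known changes.

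Genes given on every array were those called in any comparison, those whose tumours spanned at least 2 log2 units, and in each role the leaders on normal gland 2 and in tumours. Other values, and Krt14, Ckm and Far2, were picked after they were seen. The members and lists were chosen with earlier results of these data known. Replicate numbers name different mice and served as a block only as an alternative. The other alternatives were no filter, a 50th percentile filter, averaged probe sets, quantile normalisation, median centring, an intensity trend, array weights, fits of the compared groups alone, age as a covariate, single arrays left out, and, chosen after seeing the data, other limits for a raised gene.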

Additional observations from a re-analysis of the deposited data

Results flagged for a closer look

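In 10 of the 38 genes (26.3%, against 13.4% of all genes) 1 tumour lay far from the other 5, judged by its gap to the nearest tumour as a share of the whole range (Dixon's test). Chance alone passes this limit in about 5% of groups. In 8 of the 10 genes the tumour was non-metastatic tumour 2 as the highest: Krt16 at 7.84, Dsc1 at 8.10, Cdsn at 8.33, Ivl at 7.35, Sprr1b at 6.36, Krtdap at 10.32, Klk5 at 6.44 and Klk7 at 11.31, with the next tumours at 5.57, 4.84, 5.84, 5.57, 5.40, 6.13, 5.39 and 6.30. Tgm5 was highest in metastatic tumour 1, at 7.68 with the next tumour at 6.68. Krt1 was lowest in non-metastatic tumour 2, at 5.22 with the next tumour at 5.51, a gap within a range of 0.38.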

How the results depend on the processing

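Between the tumour groups, no member was called under any alternative or with any array left out (0 to 0). Over all genes at most 40 (0.23%) were called in any of these fits, namely without non-metastatic tumour 3. A count of 0 members is thus near the share of all genes. For all tumours against normal glands 2 members were called, 11 with array weights (10 higher, 32.4% of the members against 43.5% of all genes in that fit) and 1 with the replicate block (17.8% of all genes), and 1 to 3 with single arrays left out. For metastatic tumours the count of 2 became 8 with array weights (37.2% of all genes), 1 with the block (7.43%), 1 without both the filter and normal gland 2 (3.26%), and 0 to 2 with arrays left out. For non-metastatic tumours it became 1 with no filter (13.3%), 1 with quantile normalisation (16.1%), 0 with only the groups compared (8.77%), 1 with the block (12.9%), and 0 to 3 with arrays left out. With single arrays left out, 10.8% to 23.5% of all genes were called for all tumours. The share was 3.62% to 16.1% for metastatic tumours and 7.59% to 21.2% for non-metastatic tumours. Array weights gave normal gland 1 a weight of 7.50 and normal glands 2 and 3 weights of 0.44 and 0.49, and called Sprr1a, Krt79, Dsg3, Asprv1 and Grhl3. With the replicate number as a block Cers3 (limma adjusted p = 0.059 for all tumours, 0.082 for non-metastatic tumours) and Calml3 (0.051) were not called. The numbers did not pair the arrays, since deviations of same-numbered arrays correlated between -0.28 and 0.17 over genes, and of others between -0.27 and 0.26.

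With single arrays left out the median change of the members ran from -0.48 to 0.67 for all tumours, -0.53 to 0.28 for metastatic, -0.34 to 0.63 for non-metastatic tumours and -0.43 to 0.07 between the tumour groups. For all tumours against normal glands, 12 of 33 genes turned from negative to positive without normal gland 2, and 16 of 38 without the filter as well, none of them called in either fit. Among the genes followed through every alternative, the sign turned for Dsg1a (0.15) and Krtdap (0.51) with array weights, and without the filter and normal gland 2 for Alox12b (0.037), Cdsn (0.16), Dsg1a (0.31), Krt1 (0.074), Krt10 (0.20) and Krtdap (0.81). With arrays left out these ran from -1.68 to 0.037, -2.16 to 0.16, -1.90 to 0.31, -2.58 to 0.074, -2.77 to 0.20 and -2.57 to 0.81. Each of these genes was higher on normal gland 2 than on the other normal glands, so leaving it out lowers their normal mean. Why normal gland 2 was high was not tested.

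The limit for a raised gene moved the counts. The share of all genes raised is not given for the other limits and references. The counts below therefore show only how the members moved, without a background to compare them with. At 2 log2 units non-metastatic tumour 1 raised 4, metastatic tumours 1, 2 and 3 raised 10, 5 and 1, and no gene was raised in all 6 (0). At 0.5 units non-metastatic tumour 1 raised 14, metastatic tumour 3 raised 11, and 9 were raised in all 6. With normal gland 1 or 3 left out of the reference, the counts were 30 to 31 on normal gland 2, 9 to 11 in non-metastatic tumours 1 and 3, 23 to 24 in non-metastatic tumour 2, 16 to 17, 10 to 12 and 9 to 9 in metastatic tumours 1, 2 and 3, 5 to 7 in all 6, and 8 to 8 on normal gland 2 alone.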

Other observations

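A few genes outside the 38 were also high on normal gland 2 or in 1 or more tumours, and were picked after their values were seen. Lor, the main envelope protein loricrin, read 5.43, 10.78 and 5.82 in normal glands and between 5.34 and 6.17 in tumours, so it was high on normal gland 2 alone. Krt6a read 4.33, 9.45 and 3.85 in normal glands, 8.19, 9.38 and 8.00 in non-metastatic tumours, and 11.52, 8.06 and 6.65 in metastatic tumours, and was raised in all 6 tumours. Sprr4 was 8.75 and the protease inhibitor Cst6 was 9.64 in non-metastatic tumour 2, and no other tumour raised either.

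Tmprss11d, an airway-type protease, was 10.20 in metastatic tumour 1 and at most 5.80 in the other tumours. Klk10 was 10.67 in non-metastatic tumour 2 and 10.50 in metastatic tumour 1. Pax9, a transcription factor of oral and oesophageal epithelium, was 10.28 in metastatic tumour 2 and at most 5.91 in the other tumours, while the mucosal keratins Krt4 and Krt13 lay between 5.07 and 5.57 in all 6. Adjusted p for these 9 genes in all tumours against normal glands lay between 0.20 and 0.87 by limma.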
